A study of Mus musculus with 8 samples.

Results

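The genes examined were 5 subunits of the GABA-A receptor, Gabra2, Gabra3, Gabra5, Gabrb1 and Gabrg3, and 2 chloride cotransporters, Slc12a2 and Slc12a5. They were taken by gene symbol from the 48709 genes listed, by a rule that names no measured value, though the choice was made with earlier results of these data known. All 7 were found and were among the 16287 genes expressed highly enough to be tested. Transcripts of the whole P1 mouse cortex were counted by RNA-seq in 4 control and 4 dcKO_Nex-Cre libraries. In dcKO_Nex-Cre mice, floxed BAF155 and BAF170, core subunits of the chromatin remodeling BAF complex encoded by Smarcc1 and Smarcc2, are deleted by Nex-Cre, a Cre line active in postmitotic cortical neurons, so that interneurons, glia and progenitors in the same tissue keep both genes. The labels name the groups Control and Mutant and give the age as P1. The Nex-Cre driver, the C57BL6/J background and the genotype of the controls come from the study's methods. The controls were heterozygous for both floxed genes (BAF155 fl/+, BAF170 fl/+) and carried no Cre, so that the groups differ in Cre as well as in the deletion. Whether each library came from a separate animal is not given in the sources used here, and p-values therefore measure the spread between these libraries.

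GABA-A receptors are pentameric chloride channels. Most are assembled from alpha, beta and gamma subunits, and the alpha subunit largely sets where the receptor sits and how it responds to GABA and to drugs. Early in cortical development neurons take up chloride through NKCC1, the product of Slc12a2, and GABA can depolarize them. With maturation the extruder KCC2, the product of Slc12a5, gains in expression and GABA becomes inhibitory.

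The control libraries held 18737230 to 24036915 counts each and the dcKO_Nex-Cre libraries 17958641 to 35191912. Both targeted genes were downregulated in the dcKO_Nex-Cre cortex, with log2 fold changes of -0.53 for Smarcc1 and -0.81 for Smarcc2 (adjusted p = 0.0348 and 0.00267, edgeR's quasi-likelihood test with Benjamini-Hochberg adjustment over all genes tested). The Smarcc1 call was lost, with adjusted p-values of 0.0784 to 0.132, when any control library or dcKO_Nex-Cre replicate 1 or 3 was left out. Mitochondrial genes took 2.33% to 6.87% of the counts, with the highest shares in control replicate 2 (6.87%) and dcKO_Nex-Cre replicate 4 (6.15%). Lane tag 2 stands in the file names of dcKO_Nex-Cre replicates 1 and 2 and of every control library, and dcKO_Nex-Cre replicates 3 and 4 carry lane tag 8. Differences are given as dcKO_Nex-Cre against control, and levels as CPM, counts scaled to a fixed library size after TMM normalization. In whole tissue, fewer cells of a type and less RNA per cell cannot be told apart.

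None of the 7 genes passed the test, and the control and dcKO_Nex-Cre libraries overlapped for every one of them. The difference with the smallest p was that of Gabra3, at 123% of its control level. Gabra5 was lower, with a log2 fold change of -0.18, and the remaining 5 genes lay between 95.9% and 119% of their control levels. Among all genes tested, 0.884% passed an adjusted p of 0.05, and in 8.0% the groups did not overlap (3.99% higher, 4.01% lower). At an unadjusted p of 0.05, 1 of the 7 genes, Gabra3, was counted, and it was higher. The background was 13.6% of all genes tested, with 6.59% higher and 7.05% lower. The count of members called was also 0 with DESeq2, with limma-voom and in each of the 16 alternative analyses. These included the libraries of lane tag 2, in which 1.48% of all genes passed, and the analysis without dcKO_Nex-Cre replicate 4, with 7.73%. The median log2 fold change of the 7 genes was 0.14, beside 0.0043 for all genes tested.

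**Figure D1:**
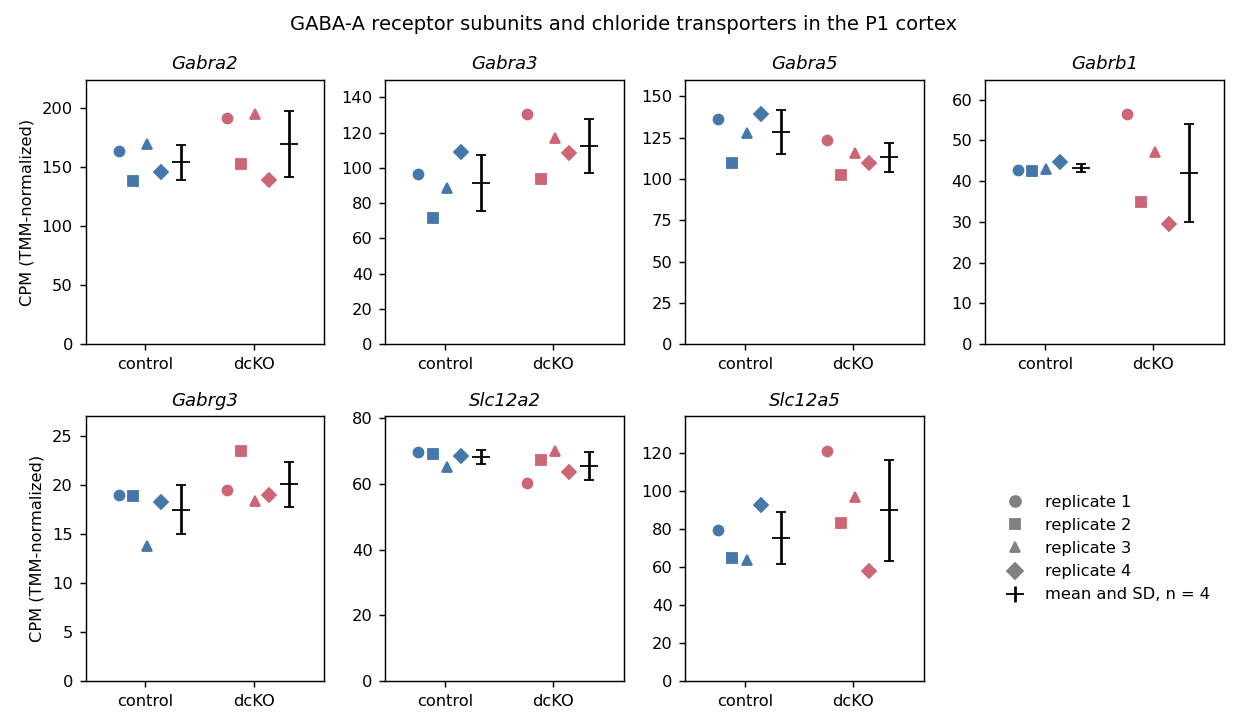
Levels of the 7 genes in each library, in TMM-normalized CPM on a linear axis that starts at 0, for the 4 control (blue) and 4 dcKO_Nex-Cre (red) libraries, with marker shapes for replicate numbers and black bars for the mean and SD. The groups overlap in each panel, and Slc12a5 spans 57.9 to 121 CPM in the dcKO_Nex-Cre cortex against 63.6 to 92.4 CPM in the control.

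Counts per kilobase of exon placed the genes in order within the control cortex. Gabra5 was highest at 43.2 ± 4.45 CPM per kilobase (SD, n = 4), followed by Gabra3 at 23.3 ± 4.02, Gabra2 at 20.2 ± 1.95, Slc12a5 at 10.1 ± 1.83, Slc12a2 at 6.24 ± 0.19, Gabrb1 at 3.12 ± 0.077 and Gabrg3 at 1.47 ± 0.21 CPM per kilobase. Gabra3 and Gabra2 were the only neighbours in this order whose control libraries overlapped. The order of the means was the same in the dcKO_Nex-Cre cortex. It ran from Gabra5 at 38.02 ± 3.04 down to Gabrg3 at 1.68 ± 0.19 CPM per kilobase, and again only Gabra3 and Gabra2 overlapped. Both orders depend on the exon lengths used, which are unions of the annotated exons. Without division by length, the control mean of Gabra2 was the highest, at 154 CPM against 128 CPM for Gabra5.

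The alpha subunit genes lie in clusters with other subunits. On GRCm38, Gabra2 (ENSMUSG00000000560, chromosome 5: 70957597-71095849, minus strand) and Gabrb1 (ENSMUSG00000029212, chromosome 5: 71658113-72149037, plus strand) share a cluster with Gabrg1 and Gabra4. Gabra5 (ENSMUSG00000055078, chromosome 7: 57407672-57510059, minus strand) and Gabrg3 (ENSMUSG00000055026, chromosome 7: 56716465-57387188, minus strand) lie next to each other. Gabra3 (ENSMUSG00000031343, chromosome X: 72432681-72656848, minus strand) lies beside Gabre and Gabrq. Slc12a5 (ENSMUSG00000017740, chromosome 2: 164960802-164999731, plus strand) and Slc12a2 (ENSMUSG00000024597) belong to no such cluster.

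The start regions of Gabra3 and Gabra5 are shown because theirs was the only pair of the 7 genes whose count ratio did not overlap between the groups, and those of Gabrb1 and Gabra4 because the pair starts head to head and only Gabra4 passed the test. Each is the RefSeq window on GRCm38.p6 of 300 bases, from 250 before to 50 after a transcript start, written along the gene's own strand, with every CG dinucleotide (motif CG, which reads the same on both strands) in capitals. A window was found for 6 of the 7 genes, 9 windows in all. Gabra3 has a second window that overlaps the one shown and also holds 0 CG.
Gabra3, chrX:72656758-72657057, minus strand: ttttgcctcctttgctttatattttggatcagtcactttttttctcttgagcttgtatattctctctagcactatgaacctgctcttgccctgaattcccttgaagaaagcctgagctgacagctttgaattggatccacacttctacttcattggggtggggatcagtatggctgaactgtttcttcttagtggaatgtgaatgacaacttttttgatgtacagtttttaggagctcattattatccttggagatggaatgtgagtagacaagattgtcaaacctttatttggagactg
Gabra5, chr7:57510010-57510309, minus strand: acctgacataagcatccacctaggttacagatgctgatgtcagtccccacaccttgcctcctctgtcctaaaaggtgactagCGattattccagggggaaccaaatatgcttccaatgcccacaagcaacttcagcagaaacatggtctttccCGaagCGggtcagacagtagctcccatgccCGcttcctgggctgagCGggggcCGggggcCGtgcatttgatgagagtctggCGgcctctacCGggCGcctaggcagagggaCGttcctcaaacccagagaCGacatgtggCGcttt
Gabrb1, chr5:71657671-71657970, plus strand: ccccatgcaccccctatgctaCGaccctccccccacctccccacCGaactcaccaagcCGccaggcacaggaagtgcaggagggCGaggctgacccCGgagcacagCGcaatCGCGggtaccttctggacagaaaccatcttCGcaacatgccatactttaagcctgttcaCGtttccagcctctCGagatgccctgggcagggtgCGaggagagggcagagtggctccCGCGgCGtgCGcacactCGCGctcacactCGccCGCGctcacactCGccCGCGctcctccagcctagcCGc
Gabra4, chr5:71658259-71658558, minus strand: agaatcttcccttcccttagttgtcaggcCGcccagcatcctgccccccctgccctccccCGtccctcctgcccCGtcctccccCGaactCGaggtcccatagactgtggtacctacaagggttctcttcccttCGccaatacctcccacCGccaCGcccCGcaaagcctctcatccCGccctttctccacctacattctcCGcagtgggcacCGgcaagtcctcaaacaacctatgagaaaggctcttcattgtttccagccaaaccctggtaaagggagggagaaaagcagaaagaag

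The Gabra3 window holds 0 CG, that of Gabra5 13, the upstream one of Gabrb1 25 and that of Gabra4 12. Over all 32851 windows of the same length the median was 7, and 94.6% held at least 1 CG. The other windows held 25 CG for Gabra2, 13 for Gabrg3, 21 at each of the 2 starts of Slc12a5, which lie 7142 bases apart, and 9 at a downstream start of Gabrb1. The counts were not split by transcript start, and nothing in these data measures methylation or binding at these windows.

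Gabra3 encodes the alpha3 subunit, abundant in the fetal and newborn cortex. Its levels were 96.4, 71.5, 88.5 and 109 CPM in control replicates 1 to 4 and 130, 93.7, 117 and 108 CPM in dcKO_Nex-Cre replicates 1 to 4. Replicates 1 and 3 of the dcKO_Nex-Cre cortex exceeded every control library, while replicates 2 and 4 lay within the control range. The log2 fold change was 0.30 (SE 0.13, 95% interval 0.008 to 0.59), with an adjusted p of 0.353 by edgeR's quasi-likelihood test and p = 0.143 in the two-sided exact permutation test over the 70 regroupings, which cannot go below 0.0286. Over the alternatives the log2 fold change ranged from 0.21 to 0.39, and the adjusted p from 0.180 to 0.610.

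Gabra5 encodes the alpha5 subunit, found largely outside synapses. It was measured at 137, 110, 128 and 139 CPM in the control and at 124, 103, 116 and 110 CPM in the dcKO_Nex-Cre libraries. Replicates 2 and 4 of the mutants lay below every control library, and the other two lay within the control range. Its log2 fold change was -0.18 (SE 0.09, 95% interval -0.38 to 0.014, adjusted p = 0.393 by edgeR, exact permutation p = 0.114). An antisense gene, Gm9962, shares 148 exon bases with Gabra5. It had 11 to 31 counts per library, against 1954 to 4274 for Gabra5.

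Gabra2 encodes the alpha2 subunit, a main alpha subunit of early synapses and of the axon initial segment. The control libraries held 163, 138, 170 and 146 CPM and the dcKO_Nex-Cre libraries 192, 153, 195 and 139 CPM. This gave a log2 fold change of 0.14 (SE 0.12, 95% interval -0.12 to 0.40, adjusted p = 0.620 by edgeR, exact permutation p = 0.343). Replicates 1 and 3 of the dcKO_Nex-Cre cortex again exceeded all controls.

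Within a library, the ratio of Gabra3 to Gabra5 did not overlap between the groups. The log2 ratio of their counts was -0.50, -0.62, -0.53 and -0.35 in control replicates 1 to 4 and 0.075, -0.13, 0.013 and -0.017 in dcKO_Nex-Cre replicates 1 to 4. Every dcKO_Nex-Cre library thus lay above every control library, with means of -0.50 ± 0.11 and -0.015 ± 0.086 (SD, n = 4) and a difference of 0.49. This ratio does not depend on how the libraries were scaled. It was chosen after the values were seen, from the 21 possible pairs of the 7 genes, and is given as a description without a test. It was the only pair of the 21 in which the groups did not overlap. Over all pairs of the 16265 tested genes with a count in every library, 8.64% did not overlap, so 1 of 21 pairs is no more than the background and is not a result about these genes. The difference was 0.45 to 0.54 when any single library was left out and 0.47 in the libraries of lane tag 2. It was 0.45 without control replicate 2 and dcKO_Nex-Cre replicate 4, the libraries with the highest mitochondrial shares. The pair was chosen on these same libraries, so these values lend the difference no support.

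**Figure D2:**
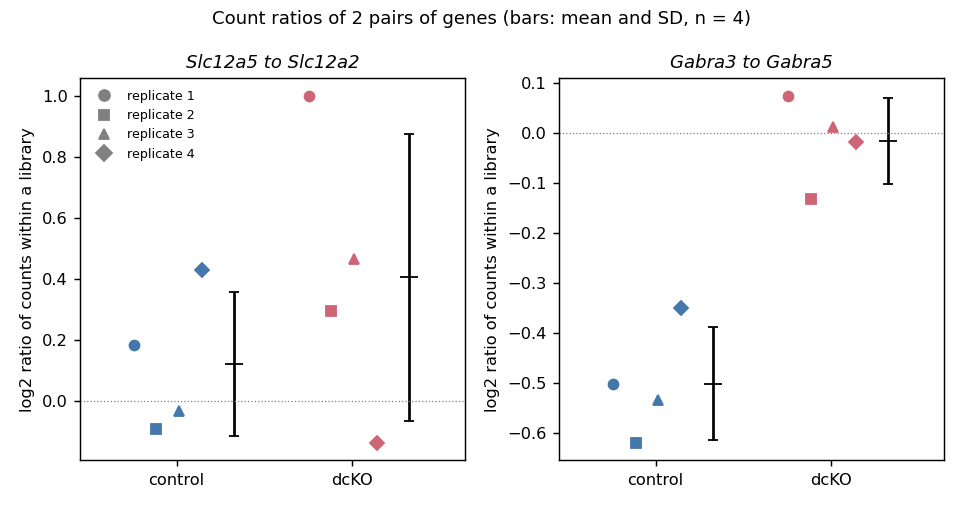
Log2 ratio of counts within each library for Slc12a5 to Slc12a2 (left) and Gabra3 to Gabra5 (right), with the 4 control libraries in blue, the 4 dcKO_Nex-Cre libraries in red, and black bars for the mean and SD. The groups overlap on the left, whereas on the right the control libraries reach at most -0.35 and the dcKO_Nex-Cre libraries start at -0.13.

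The same values can be read in the make-up of the 5 subunit transcripts, as counts per kilobase of exon in percent of their sum. Gabra5 took 47.6%, 47.5%, 46.8% and 47.5% in the control and 39.4%, 41.7%, 39.3% and 42.7% in the dcKO_Nex-Cre libraries. Its mean share was 47.3% ± 0.37 and 40.7% ± 1.67 (SD, n = 4), a difference of -6.58 percentage points without overlap. Gabra3 took 25.4%, 23.4%, 24.5% and 28.3% in the control and 31.5%, 28.8%, 30.0% and 31.9% in the dcKO_Nex-Cre libraries. Its mean share was 25.4% ± 2.09 and 30.6% ± 1.41, a difference of 5.16 points without overlap. The shares of Gabra5 and Gabra3 use the same counts as their ratio, a pair chosen after the values were seen, and are not a further result. How often such shares do not overlap among other genes was not computed. Shares within one sum are not independent of each other, and no test was made of them. Those of Gabra2 (22.2% ± 2.05 and 23.7% ± 1.90), Gabrb1 (3.45% ± 0.34 and 3.20% ± 0.59) and Gabrg3 (1.62% ± 0.32 and 1.83% ± 0.39) overlapped between the groups.

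**Figure D3:**
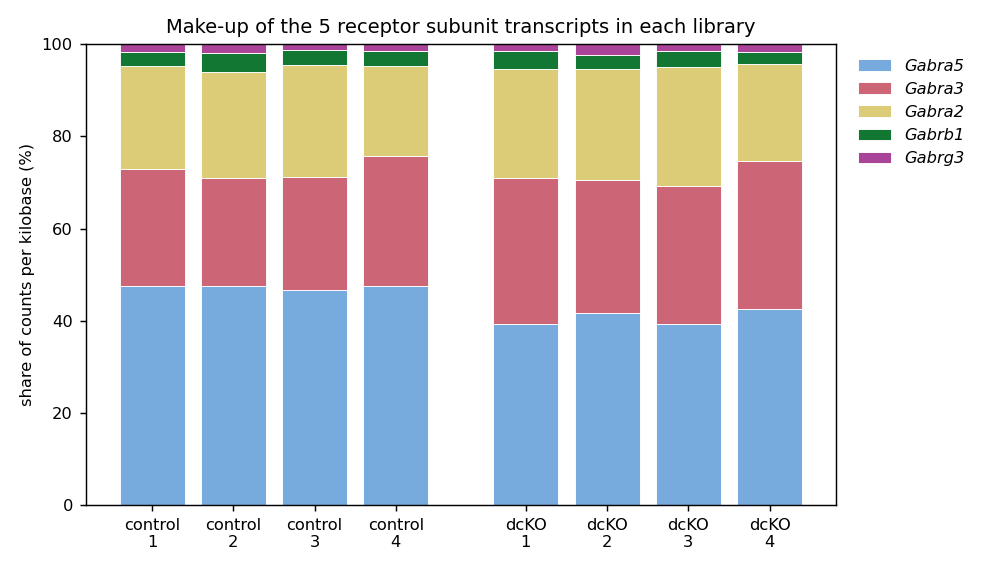
Share of each of the 5 subunit genes in their summed counts per kilobase of exon, in percent, as 1 stacked bar per library. The Gabra5 part is 46.8% to 47.6% in the 4 control bars and 39.3% to 42.7% in the 4 dcKO_Nex-Cre bars. The shares come from the same counts as the ratio of Gabra3 to Gabra5 and were not tested.

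Gabrb1 encodes the beta1 subunit. Its 4 control libraries lay close together at 42.6, 42.4, 43.0 and 44.8 CPM, whereas the dcKO_Nex-Cre libraries spread over 56.4, 35.0, 47.2 and 29.5 CPM. Replicates 1 and 3 of the dcKO_Nex-Cre cortex lay above and replicates 2 and 4 below all controls. The SD was 1.06 CPM in the control and 12.1 CPM in the dcKO_Nex-Cre cortex, a contrast picked out after the values were seen and not tested. The log2 fold change was -0.035 (SE 0.17, 95% interval -0.40 to 0.33, adjusted p = 0.942 by edgeR, exact permutation p = 0.914), and it was 0.10 without dcKO_Nex-Cre replicate 4 and -0.21 without dcKO_Nex-Cre replicate 1.

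Gabrg3 encodes the gamma3 subunit, a minor gamma subunit of the cortex. It was at 19.0, 18.9, 13.8 and 18.3 CPM in the control and at 19.5, 23.5, 18.4 and 19.0 CPM in the dcKO_Nex-Cre libraries. Control replicate 3 was the lowest of the 8 libraries and dcKO_Nex-Cre replicate 2 the highest. Its log2 fold change was 0.20 (SE 0.12, 95% interval -0.073 to 0.48, adjusted p = 0.492 by edgeR, exact permutation p = 0.143).

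Slc12a2 encodes NKCC1, which imports chloride together with sodium and potassium. It spanned only 60.4 to 70.1 CPM over all 8 libraries, at 69.9, 69.1, 65.1 and 68.6 CPM in the control and 60.4, 67.5, 70.1 and 63.6 CPM in the dcKO_Nex-Cre libraries. The log2 fold change was -0.060 (SE 0.072), and its 95% interval of -0.22 to 0.098 was the narrowest of the 7 genes (adjusted p = 0.733 by edgeR, exact permutation p = 0.286). NKCC1 is also a transporter of the choroid plexus, whose 6 markers summed to between 22.3 and 1336 CPM in the control and between 4.10 and 557 CPM in the dcKO_Nex-Cre libraries. Slc12a2 itself was at 65.1 to 69.9 CPM in the control libraries and at 60.4 to 70.1 CPM in the dcKO_Nex-Cre libraries. The part of the choroid plexus in its level was not tested.

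Slc12a5 encodes KCC2, the neuronal extruder of potassium and chloride. The control libraries held 79.3, 64.8, 63.6 and 92.4 CPM and the dcKO_Nex-Cre libraries 121, 82.7, 96.8 and 57.9 CPM. Replicates 1 and 3 of the dcKO_Nex-Cre cortex exceeded all controls, and replicate 4 lay below them all. The log2 fold change was 0.26 (SE 0.20, 95% interval -0.17 to 0.69, adjusted p = 0.573 by edgeR, exact permutation p = 0.4). Single libraries moved this value widely. It was 0.079 without dcKO_Nex-Cre replicate 1, 0.42 without dcKO_Nex-Cre replicate 4 (adjusted p = 0.114) and 0.44 in the libraries of lane tag 2. Replicate 4 had a mitochondrial share of 6.15% and replicate 1 one of 2.33%, the highest and lowest of the dcKO_Nex-Cre libraries, and their part in the result was not tested.

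The balance of the transporters was described by the log2 ratio of Slc12a5 to Slc12a2 counts in each library. It was 0.18, -0.092, -0.034 and 0.43 in control replicates 1 to 4 and 1.0, 0.29, 0.46 and -0.14 in dcKO_Nex-Cre replicates 1 to 4. The means were 0.12 ± 0.24 and 0.41 ± 0.47 (SD, n = 4). The difference of 0.28 is smaller than the SD of the dcKO_Nex-Cre libraries, which held both the highest and the lowest of the 8 ratios. Without dcKO_Nex-Cre replicate 1 the difference was 0.086, without dcKO_Nex-Cre replicate 4 it was 0.47, and in the libraries of lane tag 2 it was 0.53.

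Several of the 7 genes shared an order within the dcKO_Nex-Cre libraries. In Gabra2, Gabra3, Gabra5, Gabrb1 and Slc12a5, replicates 1 and 3 were higher than replicates 2 and 4, a grouping that does not follow the lane tags. Gabrg3 and Slc12a2 did not show it. For the transporters, the genes with the most similar pattern were ranked by Pearson's r of log2 CPM over the 8 libraries among 10280 genes with a mean of at least 10 CPM. Slc12a5 was most like Slc5a3 (r = 0.98), a myo-inositol transporter, Mboat7 (r = 0.97), an enzyme of phosphatidylinositol acylation, and Selenoi (r = 0.96), an enzyme of phosphatidylethanolamine synthesis, and 107 genes exceeded r = 0.9. Slc12a2 was most like Sypl (r = 0.91), Magt1 (r = 0.90) and Pop4 (r = 0.88), and only 2 genes exceeded r = 0.9. These values are descriptions. All points share the libraries, with their differences in depth and mitochondrial share.

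Among the 14 other GABA-A receptor subunits, 8 were tested, of which 1 was downregulated and 0 upregulated, against 0.51% and 0.375% of all genes tested. Their median log2 fold change was -0.13, beside 0.0043 for all genes. The one that passed was Gabra4, the alpha4 subunit of receptors outside synapses, which lay at 41.5, 37.1, 37.0 and 41.1 CPM in the control and at 27.0, 23.6, 29.1 and 29.9 CPM in the dcKO_Nex-Cre libraries. All dcKO_Nex-Cre libraries were below all controls, at a log2 fold change of -0.52 (SE 0.092, adjusted p = 0.0313 by edgeR). The call was lost when any single library other than dcKO_Nex-Cre replicate 4 was left out, with adjusted p-values from 0.0513 to 0.137, while the log2 fold change stayed between -0.56 and -0.45.

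Gabra4 is the head-to-head neighbour of Gabrb1. The genes run in opposite directions on chromosome 5 and share 46 exon bases, and their RefSeq starts lie 387 bases apart. Whether strand was used in counting is not given in the sources used here, so reads in the shared bases could belong to either gene. The log2 ratio of Gabrb1 to Gabra4 counts averaged 0.14 ± 0.080 over the control and 0.58 ± 0.45 over the dcKO_Nex-Cre libraries (SD, n = 4). Replicates 1, 2 and 3 of the dcKO_Nex-Cre cortex, at 1.06, 0.57 and 0.70, lay above all controls, and replicate 4, at -0.019, lay below them.

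No other tested subunit passed. Gabrg1, a gamma subunit from the same cluster, was at 34.4 ± 5.70 and 24.5 ± 2.34 CPM (SD, n = 4), with a log2 fold change of -0.49 (SE 0.13) and no overlap between the groups. Its adjusted p was 0.121 by edgeR and 0.0208 to 0.340 over the alternatives, falling to 0.0434 without dcKO_Nex-Cre replicate 4. Gabrd, the delta subunit of extrasynaptic receptors, was low, at 3.63 ± 0.71 and 5.89 ± 1.39 CPM. It gave 0.70 (SE 0.21, adjusted p = 0.176 by edgeR) and passed in 3 of the 16 alternatives, with adjusted p-values of 0.0110 to 0.422. Without dcKO_Nex-Cre replicate 4, where 7.73% of all genes passed, its adjusted p was 0.0181. Gabrb2 gave -0.19 and Gabrq 0.11, with adjusted p-values of 0.532 and 0.895. Gabra6, Gabre, Gabrp, Gabrr1, Gabrr2 and Gabrr3 were too low to be tested, with at most 12 counts in a library.

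**Figure D4:**
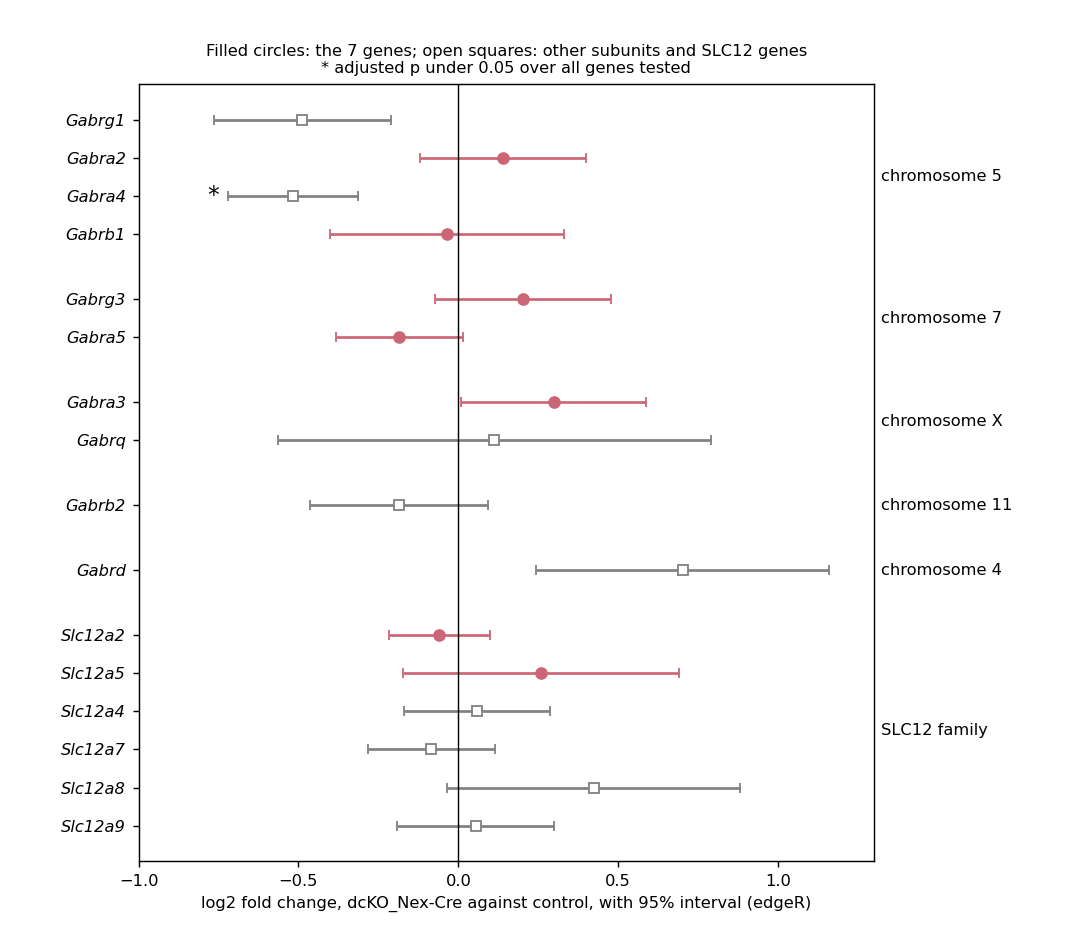
Log2 fold changes of the dcKO_Nex-Cre against the control cortex with 95% intervals from edgeR, for the 5 subunits and 2 transporters (filled red circles) and other tested subunits and SLC12 genes (open squares), with subunits ordered along their chromosomes. The interval of Gabra3 starts at 0.008, that of Gabra5 ends at 0.014, and only Gabra4, marked by an asterisk, had an adjusted p under 0.05.

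Of the 7 other SLC12 cotransporters, 5 were tested and 0 passed, with 0 also at an unadjusted p of 0.05 by edgeR. Slc12a8, at 1.38 ± 0.27 and 1.85 ± 0.26 CPM, gave a log2 fold change of 0.42 (SE 0.21, adjusted p = 0.397). Slc12a4 gave 0.059 and Slc12a7 -0.084. Slc12a1 and Slc12a3, the cotransporters of the kidney, were too low to be tested.

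All 13 kinases and partners of the cotransporters were tested, and 0 passed, with 0 at an unadjusted p of 0.05 by edgeR. Stk39, which encodes SPAK, the kinase that phosphorylates NKCC1 and KCC2, gave -0.20 (SE 0.098, adjusted p = 0.397). Oxsr1, the related kinase, gave 0.098 (SE 0.062, adjusted p = 0.504), with the 4 dcKO_Nex-Cre libraries above all controls. Neto2, a partner of KCC2, gave 0.13 (adjusted p = 0.441), and Ckb, the brain creatine kinase, -0.14 (adjusted p = 0.486). The WNK kinases upstream of SPAK ranged from -0.071 for Wnk4 to 0.10 for Wnk3.

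Of the 13 other chloride channels and exchangers, all were tested and 0 passed. At an unadjusted p of 0.05 by edgeR, 1 was lower, against 7.05% of all genes tested. This was Slc4a10, a bicarbonate transporter, at -0.31 (SE 0.11, adjusted p = 0.272). Clcn5 gave 0.16, Clcn6 0.17 and Slc4a3 -0.13, with adjusted p-values of 0.395 to 0.483. For receptor trafficking and clustering, 20 of 21 genes were tested and 0 passed, with 0 at an unadjusted p of 0.05 by edgeR. The 4 with the smallest p were Slitrk3, an inhibitory synapse adhesion protein, at 0.21, Insyn1, a gephyrin-associated protein, at -0.17, Gabarapl2 at -0.21 and Lhfpl3 at 0.24 (adjusted p = 0.376 to 0.504). Gphn, the gephyrin scaffold, gave 0.086 (adjusted p = 0.736).

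Among 8 genes of GABA synthesis, loading, uptake and breakdown, 0 passed. At an unadjusted p of 0.05 by edgeR, 1 was higher, against 6.59% of all genes tested. This was Abat, the GABA transaminase, with a log2 fold change of 0.28 (SE 0.11, adjusted p = 0.312 by edgeR). Abat passed in 2 of the 16 alternatives, with adjusted p-values of 0.0078 to 0.576. Without dcKO_Nex-Cre replicate 4, where 7.73% of all genes passed, its adjusted p was 0.0156. Gad1, which makes GABA, gave -0.19 (adjusted p = 0.420), Aldh5a1 0.16 (adjusted p = 0.510), and Slc6a13, near the detection limit, 1.21 (SE 0.83, adjusted p = 0.539). Of the 6 genes of the GABA-B receptor and its auxiliary subunits, 1 was upregulated, against 0.375% of all genes tested. Kctd12, an auxiliary subunit that shapes how the receptor response fades, was at 89.3, 83.2, 84.6 and 78.0 CPM in the control and 112, 109, 127 and 122 CPM in the dcKO_Nex-Cre libraries. Each dcKO_Nex-Cre library exceeded all controls, at a log2 fold change of 0.49 (SE 0.075, adjusted p = 0.0173). Without control replicate 1, 3 or 4 or dcKO_Nex-Cre replicate 3 the adjusted p was 0.0754, 0.0607, 0.0857 and 0.0701.

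Kctd16, Gabbr2 and Kctd8 gave -0.36, -0.15 and -0.13, with adjusted p-values of 0.478 to 0.749. Of the 7 glycine receptor subunits and transporters, 4 were tested and 0 passed. Glra3 gave -0.85 (SE 0.30, adjusted p = 0.249) at 5.13 ± 1.81 and 2.80 ± 1.06 CPM, and it was the only one at an unadjusted p of 0.05. Glra2, the alpha subunit of immature neurons, was at 194 ± 12.5 and 209 ± 45.2 CPM and gave 0.11, while Slc6a9 gave 0.20 and Glrb -0.025. Over the 8 lists together, 1 gene was upregulated and 1 downregulated of 77 tested, against 0.375% and 0.51% of all genes tested. At an unadjusted p of 0.05 by edgeR, 3 were higher and 5 lower, against 6.59% and 7.05% of all genes tested. The median log2 fold change was 0.027, beside 0.0043 for all genes tested. With DESeq2 the genes of these lists that passed were Kctd12 and Gabrd, both higher, and Gabra4 and Gabrg1, both lower.

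Markers of cell types were read beside these values, in 13 lists of which 84 genes were tested. Of these, 3 were called higher and 2 lower, against 0.375% and 0.51% of all genes tested. In 8.0% of all genes tested the groups did not overlap. The 10 markers of glutamatergic projection neurons summed to 1583 to 1846 CPM in the control and 1317 to 1554 CPM in the dcKO_Nex-Cre libraries. The lack of overlap rested on Neurod6, the locus into which Nex-Cre is inserted, since the other 9 markers summed to 1008 to 1095 and 895 to 1143 CPM, which overlap. Of the 10 log2 fold changes, 7 were below 0 and 3 above. At an unadjusted p of 0.05 by edgeR, 4 were lower and 1 higher, against 7.05% and 6.59% of all genes tested. Slc17a7 was 1 of those lower, at 42.0 to 74.0 against 58.7 to 107 CPM (adjusted p = 0.280 by edgeR). Neurod6 and Emx1 were downregulated. Neurod1 lay higher in all dcKO_Nex-Cre libraries, at 51.7 to 64.1 against 36.0 to 50.2 CPM, and Fezf2 lower, at 35.0 to 52.0 against 53.5 to 77.5 CPM, and neither passed the test (adjusted p = 0.213 and 0.149).

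The 12 interneuron markers summed to 835 to 983 and 793 to 949 CPM, and 0 of them passed. Their log2 fold changes were above 0 in 6 and below 0 in 6. The lowest was that of Sst, at -0.84 (adjusted p = 0.0645 by edgeR). Sst lay at 65.1 to 122 CPM in the control and 43.4 to 65.5 CPM in the dcKO_Nex-Cre libraries, which overlap. The 5 markers of oligodendrocyte precursors, cells that also carry GABA-A receptors, summed to 172.74 to 252.05 and 252.13 to 307.80 CPM, with Cspg4 called higher. These ranges narrowly did not overlap, and how often such sums do not overlap was not computed. All 5 log2 fold changes were above 0, with a median of 0.40. At an unadjusted p of 0.05 by edgeR, 4 were higher, against 6.59% of all genes tested. The 7 microglial markers summed to 103 to 119 and 107 to 144 CPM. Among them C1qb was called higher, and P2ry12 was lower in all dcKO_Nex-Cre libraries without passing (adjusted p = 0.0596). The 7 striatal markers summed to 78.3 to 123 CPM in the control and 82.4 to 258 CPM in the dcKO_Nex-Cre libraries, with 258 CPM in dcKO_Nex-Cre replicate 2, and Ppp1r1b was called higher. Of the 10 markers of radial glia and astrocytes, 0 passed, and Fabp7 was lower without overlap, at 900.2 to 1349 against 1427 to 1702 CPM (adjusted p = 0.113). Most of this list went the other way, with 7 log2 fold changes above 0, 3 below and a median of 0.12. At an unadjusted p of 0.05 by edgeR, 2 were higher, Gfap and Aldoc, and 1 lower, Fabp7. The background was 6.59% higher and 7.05% lower. No gene was called in the lists for endothelial cells, mural cells and meninges, choroid plexus, thalamus, dividing cells, Cajal-Retzius cells and erythroid cells. The part of these markers in the Gabra3 to Gabra5 ratio and in the lower level of Gabra4 was not tested.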

How the data were processed

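RNA was isolated with TRIZOL from whole P1 cortex and libraries were prepared with the Illumina TruSeq RNA v2 kit, per the labels. Each deposited table holds raw counts of 1 library by Ensembl gene identifier, which the authors left unnormalized. The submitters' processing notes name the build mm10. The aligner, the counting program and the use of strand are not given in the sources used here. Identifiers were matched to GENCODE M21 (48349 of 48709 genes). Exon lengths are unions of its exons.

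edgeR 4.0.16 under R 4.3.3 was used for the count model. Its filterByExpr kept 16287 genes, TMM factors scaled the libraries, and the robust quasi-likelihood F test (two-sided, no covariates) compared the groups, with Benjamini-Hochberg adjustment over all genes tested and a threshold of 0.05. The biological coefficient of variation was 0.143. An exact permutation test of CPM, two-sided and over 70 regroupings, was added for single genes. Ratios and shares were computed within each library. No pair of libraries in a group were copies, since the smallest chi-square per degree of freedom was 3.77.

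Alternative analyses used size factors of DESeq2 within edgeR, DESeq2 1.42.0, limma-voom (limma 3.58.1), no filter, at least 10 counts in every library, the replicate number as a block, lane tag 2 only, each library left out in turn (8 fits) and, chosen after seeing the data, control replicate 2 and dcKO_Nex-Cre replicate 4 left out together. Tests run on simulated data recovered 23 of 65 genes changed by 0.5 on the log2 scale, 45 of 67 at 1 and 65 of 65 at 2, and called 10 of 15869 unchanged genes.

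The members and gene lists were chosen with earlier results of these data known. Named were the 7 members, each list gene with an adjusted p under 0.05, up to 4 genes per list with the smallest unadjusted p, Smarcc1 and Smarcc2, and the 3 genes most correlated with each transporter. Other genes named, and the ratios of Gabra3 to Gabra5 and of Gabrb1 to Gabra4, were chosen after their values were seen. Sequences are from RefSeq. The values of some list genes are not reported here, although the counts over lists include them.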

Additional observations from a re-analysis of the deposited data

Results flagged for a closer look

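In 4 of the 88 groups of 4 libraries examined for the 7 genes and the named list genes, 1 library lay far from the other 3 by Dixon's test, about as many as the 4.4 that chance gives at 1 in 20. Gabrg3 was at 13.8 CPM in control replicate 3, against 18.3 to 19.0 CPM in the other controls. Gabrg1 was at 21.0 CPM in dcKO_Nex-Cre replicate 2, against 25.3 to 25.9 CPM. Slc4a3 was at 114 CPM in control replicate 2, against 95.8 to 98.1 CPM, and Gabarapl2 was at 48.8 CPM in the same library, against 37.2 to 38.1 CPM.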

How the results depend on the processing

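The count of members called was 0 in each alternative. The direction of 6 of the 7 members was the same throughout. Gabrb1 turned to 0.087 in lane tag 2, to -0.21 to 0.10 when single libraries were left out, and to 0.096 without control replicate 2 and dcKO_Nex-Cre replicate 4. The counts of all genes called depended on the setting. Genes called higher (61) numbered 215 with DESeq2, 109 without a filter, 21 with the replicate block, 140 in lane tag 2, 9 to 659 when single libraries were left out and 896 without control replicate 2 and dcKO_Nex-Cre replicate 4. Genes called lower (83) numbered 279 with DESeq2, 150 without a filter, 33 with the block, 9 to 619 with single libraries left out and 898 without both libraries. Pathway genes called higher (1) numbered 2 with DESeq2, 0 with the block, 0 to 4 with single libraries left out and 7 without both libraries, and those called lower (1) numbered 2 with DESeq2 and without a filter, 0 with the block, 0 to 2 and 3. Marker genes called higher (3) numbered 0 with the block, 0 to 10 and 11, and those called lower (2) numbered 7 with DESeq2, 4 without a filter, 0 to 5 and 6. With 1 library left out, the largest counts of all genes were those without dcKO_Nex-Cre replicate 4 and the smallest those without control replicate 1, and the cause was not tested. The Smarcc1 call was also lost in lane tag 2 (adjusted p = 0.0752) and with the block (0.0578), and the calls of Gabra4 and Kctd12 with the block (0.0729 and 0.0610). Other reversals were Gabbr2 (0.017 in lane tag 2, -0.31 to 0.0074 with single libraries left out), Kctd8 (0.057 in lane tag 2, 0.049 without both libraries, and its values with single libraries left out from -0.25 to -0.021), Glra2 (-0.096, -0.044 to 0.20, and -0.036), Slc6a9 (-0.0014 to 0.29) and Glrb (-0.046 to 0.024), and none of them had passed the test. The replicate numbers were not taken to pair the libraries, since deviations from the group means correlated at 0.126, 0.0179, 0.135 and -0.138 between libraries of the same number. The interval of Slc12a5, -0.17 to 0.69, shows how little the spread between libraries allows to be said of that gene, whereas counting noise is small at over 1000 counts per library for it.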
